A study of Mus musculus with 216 samples.

Results

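The vomeronasal type 1 receptor (Vmn1r) genes were taken as all GENCODE vM21 protein-coding genes whose symbol starts with Vmn1r, which gave 210 of 22028 protein-coding genes. They were read against the authors' deposited table of 43039 H3K9me3 domains in mouse embryonic stem cells, in which every domain is assigned 1 of 4 classes of decay, named fast, intermediate, slow and residual. A domain counted as lying on a gene when it overlapped the gene body, from the annotated start to the annotated end, by 1 bp or more. By this rule 31 domains lay on 29 of the 210 genes.

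The cells were the dTKO line, embryonic stem cells of genotype Suv39h1fl/fl; Suv39h2-/-; Setdb1fl/fl, so the Suv39h2 deletion was shared by every sample, the 0 h baseline included. All cultures were treated with auxin (100 µg/ml) together with dTAG13 (0.5 µM), compounds that send suitably tagged proteins to the proteasome, and cells were collected at 0, 1, 3, 12, 24 and 48 h. The series covers H3K9me3 and HP1β, each with its own input, in 54 sequencing runs per kind from 3 biological repeats at each time, and it bears on how quickly H3K9me3 is lost when its methyltransferases are removed. The labels name 1 line and do not say how many clones it stands for. The domain table has 1 class per domain and no value per run or time, so no difference below has a replicate error or a test, and the depth behind a class is unknown.

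Vomeronasal type 1 receptors are G protein-coupled receptors of the sensory neurons in the apical layer of the vomeronasal organ, where they detect small volatile and steroid-like cues from other animals. They signal through the G protein alpha subunit Gnai2 and the channel Trpc2, and a mature neuron is thought to express 1 receptor gene from 1 allele. The genes sit in dense arrays that grew by tandem duplication, most have their whole reading frame in 1 exon, and embryonic stem cells are not known as a site of their function. H3K9me3 is the histone mark of repressed heterochromatin, which in embryonic stem cells is written mainly by Setdb1, Suv39h1 and Suv39h2 and covers many retroviral and other repeated sequences.

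The members lie on chromosomes 1, 4, 6, 7, 13, 17, 18 and X, and 1 of them, Vmn1r186, lies on GL456219, an unlocalized sequence of chromosome 7. Vmn1r216 is annotated as 2 genes, so the 210 entries have 209 symbols. Coding sequence formed 1 unbroken piece in 196 of the 210. The median gene body was 6787.5 bp long, with a range of 888 to 51088 bp. Gene bodies this short offer few bases to overlap, which bears on every count of genes given here.

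H3K9me3 domains were found on few of these receptors, and nearly all of those domains were of the intermediate class. A domain lay on 13.8% of Vmn1r genes (29 of 210), against 23.4% of all protein-coding genes. Of the 31 domains, 27 were intermediate, a share of 87.1% with an exact (Clopper-Pearson) 95% interval of 70.2 to 96.4%, which covers counting error only. Another 4 were slow (12.9%, interval 3.63 to 29.8%). The fast class had 0 of 31 domains and so did the residual class, and in each the exact interval for a count of 0 allows a share of up to 11.2%. Over the assembled chromosomes as a whole, with 42890 domains, 3.49% were fast, 71.5% intermediate, 20.5% slow and 4.57% residual. The intermediate and slow shares over all domains lie inside the intervals of the 31 domains, and the fast and residual shares lie under the limit that a count of 0 allows. Among domains on protein-coding gene bodies, 67.4% were intermediate, 20.3% slow, 3.41% fast and 8.86% residual. Against these, the intermediate share lies below the interval of the 31 domains and the other 3 lie within their limits. The reading for the intermediate class thus depends on the background used.

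Counted by gene, 27 of the 210 receptors had an intermediate domain and 4 had a slow one, and 2 of these had both. Over all protein-coding genes, 17.2% had an intermediate domain, 6.97% a slow one, 1.54% a fast one and 3.46% a residual one. With 210 genes, both fast and residual domains were at 0 on Vmn1r gene bodies.

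**Figure D1:**
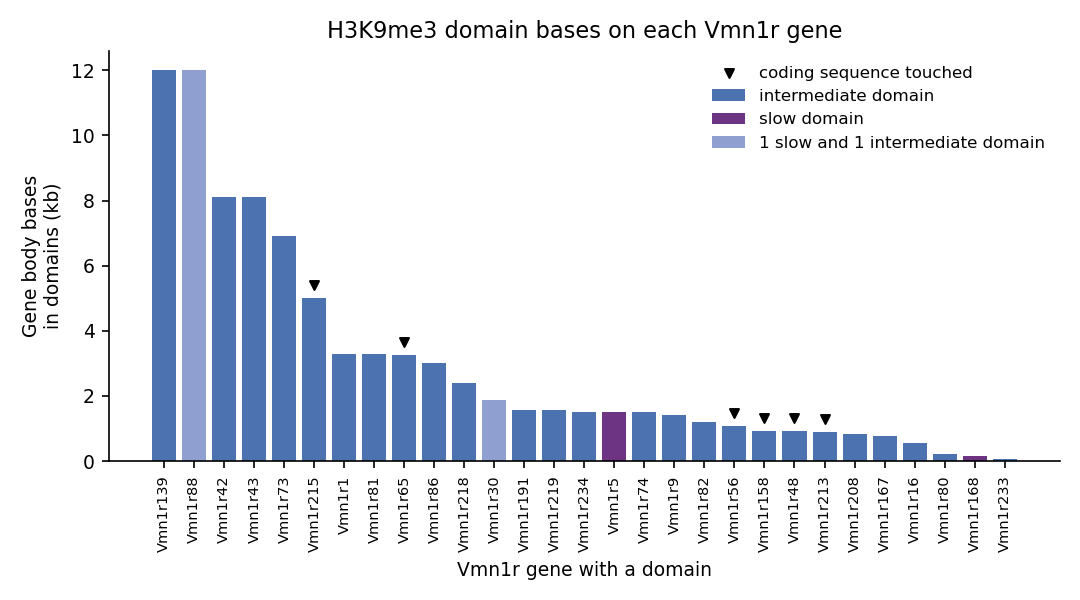
Gene body bases inside H3K9me3 domains, in kb, for each of the 29 Vmn1r genes with a domain, ordered by that value and coloured by the decay class of the domains. Triangles mark the 6 genes whose coding sequence is touched; Vmn1r139 and Vmn1r88 stand at 12000 bp and Vmn1r233, at the other end, at 54 bp.

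Coding bases lay inside a domain in 6 of the 29 genes, which is 2.86% of the 210, against 10.7% of all protein-coding genes (2347 of the 5153 with a domain). In 4 of them, Vmn1r48, Vmn1r65, Vmn1r158 and Vmn1r215, the whole reading frame lay inside an intermediate domain. Vmn1r48 (mm10 chr6:90035933-90036841, minus strand) is annotated by its 909 coding bases alone, and all of them lay in a 6.3 kb domain at chr6:90030601-90036900. Vmn1r65 (chr7:6007750-6011010, minus strand) lay whole, with its 999 coding bases, its untranslated exon sequence and its introns, in a 6.9 kb domain at chr7:6004201-6011100. These are the genes of the family with all of their annotated extent inside H3K9me3 domains, together with Vmn1r158 (chr7:22789859-22790782, minus strand), whose 924 bases lay in a 12.3 kb domain at chr7:22789801-22802100.

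Vmn1r215 (chr13:23068025-23078006, plus strand) had all 903 coding bases but 5006 bases of its 9982 bp body, 50.2%, in a 6.3 kb domain at chr13:23073001-23079300. The domain began inside the gene body and ran past the annotated end. Coding sequence was partly covered in Vmn1r56, with 317 coding bases (34.0%) at chr7:5191201-5196000, and in Vmn1r213, with 252 coding bases (21.8%) in a domain of 900 bp at chr13:23010601-23011500. Each of the 6 domains was intermediate. For the 4 receptors with their whole reading frame in a domain, the member with the most similar coding sequence had 0 coding bases in a domain: Vmn1r47 for Vmn1r48 (95.2% identity), Vmn1r64 for Vmn1r65 (79.2%), Vmn1r101 for Vmn1r158 (98.8%) and Vmn1r192 for Vmn1r215 (90.9%). Since 2.86% of the 210 members had any coding base in a domain, 0 is the usual value for a member.

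The annotated start lay in a domain in 5 genes, or 2.38% of the 210, against 2.53% of all protein-coding genes. These were Vmn1r48, Vmn1r65 and Vmn1r158, described above, and Vmn1r30 and Vmn1r208. In Vmn1r30 (chr6:58434159-58443385) a slow domain of 3 kb at chr6:58443301-58446300 reached 85 bp past the start into the gene, and an intermediate domain of 1.8 kb lay inside the body. In Vmn1r208 (chr13:22771474-22777400) a domain of 11.7 kb covered the start and 200 bp of untranslated sequence, and a second of 3.3 kb covered 627 bp at the other end. The coding sequence of both genes was free of domains.

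The sequences just before Vmn1r48 and Vmn1r65 are shown because they are start regions of Vmn1r genes that lie inside or at the edge of a domain. They are the 250 bases before the RefSeq start (GRCm38.p6), at chr6:90036842-90037091 and chr7:6011011-6011260, printed 5′ to 3′ on the strand of the gene. Capitals mark the motif TATAAA or its reverse complement.
Vmn1r48: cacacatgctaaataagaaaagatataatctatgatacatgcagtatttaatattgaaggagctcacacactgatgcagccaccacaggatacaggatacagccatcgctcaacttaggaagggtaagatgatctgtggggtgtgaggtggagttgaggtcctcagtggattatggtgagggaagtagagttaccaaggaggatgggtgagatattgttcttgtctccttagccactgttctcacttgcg
Vmn1r65: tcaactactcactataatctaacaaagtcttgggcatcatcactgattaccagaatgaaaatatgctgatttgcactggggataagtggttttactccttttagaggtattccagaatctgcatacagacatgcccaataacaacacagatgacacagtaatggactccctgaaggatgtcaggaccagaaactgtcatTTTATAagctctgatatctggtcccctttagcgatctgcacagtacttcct
The window of Vmn1r48 holds no match to the motif and that of Vmn1r65 holds 1. Counting the 50 bases after the start as well, the 300 bp windows had 109 bp and 140 bp inside the domain, so in both genes the domain edge fell within the window.

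The RefSeq table of such windows matched 183 of the 210 members by symbol. Of these 183 windows, 5 (2.73%) touched a domain, against 1224 of 32851 windows over all genes (3.73%). TATAAA, searched on both strands, was present in 81 of the 183 Vmn1r windows (44.3%) and in 13.6% of all windows. TAATTA, a homeodomain-type core searched in the same way, was present in 15 Vmn1r windows (8.20%) and in 5.29% of all. A match is a description of the letters and not of a bound site.

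Of the 10 members with the most bases in domains, Vmn1r215 (5006 bp) and Vmn1r65 (3261 bp) are those described above, with their reading frames covered. The other 8 carried their domains in introns or untranslated exon sequence and had 0 coding bases in them. Vmn1r139 (chr7:22069057-22097907), a gene of 28851 bp, held a 12 kb intermediate domain wholly within its intron. Vmn1r88 (chr7:13159568-13185864) also had 12000 bp in domains, made up of a 9.6 kb slow domain at chr7:13167901-13177500 and a 2.4 kb intermediate one at chr7:13182601-13185000, and the nearer of them ended 219 bp before its coding sequence. The overlapping genes Vmn1r42 and Vmn1r43 on chromosome 6 shared 1 intermediate domain of 8.1 kb at chr6:89859601-89867700, intronic in Vmn1r42 and in untranslated exon sequence of Vmn1r43. That domain was the least repetitive of the 31, with 95.1% of its 31-base words found at 1 place in the genome and 15.1% of its bases masked as repeats.

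Among these 8, Vmn1r73 had 6900 bp in an intronic domain, Vmn1r1 and Vmn1r81 had 3300 bp each, and Vmn1r86 had 3000 bp between its 2 coding pieces. Vmn1r1 lies by itself on chromosome 1 and had a 3.3 kb intermediate domain 1303 bp upstream of its coding sequence, inside an intron. In the chromosome 17 cluster the gene with the most bases was Vmn1r234, with a 1.5 kb intermediate domain in untranslated sequence.

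The 4 genes with a slow domain are named here after their values were seen: Vmn1r88 and Vmn1r30, above, Vmn1r5 and Vmn1r168. Vmn1r5 on chromosome 6 held a 1.5 kb slow domain in an intron, and Vmn1r168 on chromosome 7 was touched at its end, over 148 bp, by a slow domain of 12.9 kb. Of the 4 slow domains, 2 lay inside a gene body and the other 2 overlapped it by 85 and 148 bp.

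Several genes stood close to the limit of the overlap rule. The smallest overlaps were 54 bp in Vmn1r233, 148 bp in Vmn1r168 and 213 bp in Vmn1r80. Just outside, the nearest domain was 210 bp from Vmn1r180, 214 bp from Vmn1r220 and 272 bp from Vmn1r149. Domain edges lie on a grid of 300 bp, so each of these 6 genes stands within 1 grid step of the limit. Of the 31 domains, 15 lay wholly inside a gene body and the others crossed an end of it, and their widths ran from 0.9 to 18.3 kb.

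Within the family, domain coverage was lower in coding sequence than in introns. Intron bases of Vmn1r genes were inside domains for 7.22%, untranslated exon bases for 4.87% and coding bases for 2.19%. Over all protein-coding genes the order differed, with 3.45% of intron, 2.79% of untranslated and 4.22% of coding bases in domains. Over whole gene bodies, with each base counted 1 time, 5.04% of Vmn1r bases and 3.31% of the bases of all protein-coding genes were in domains. The share of genes with a domain and the share of bases thus stood in opposite order to all genes, lower in the first and higher in the second.

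Gene length bears on that difference. Among genes of up to 2 kb, 3 of 63 Vmn1r genes (4.76%) and 8.08% of all protein-coding genes had a domain. Among genes of 5 to 10 kb, the most filled length class of the family, 11 of 74 Vmn1r genes (14.9%) and 8.93% of all genes had one. For 10 to 20 kb the shares were 7 of 42 (16.7%) and 14.4%, and above 20 kb 6 of 11 (54.5%) and 38.6%. Only 20 members were 2 to 5 kb long, of which 2 had a domain (10.0%, against 7.48%). The share of bases in domains also differed by length. It was 3.09% in Vmn1r genes of 5 to 10 kb, against 2.89% in all genes, and 2.99% against 3.13% at 10 to 20 kb. Above 20 kb it was 13.8% against 3.45%. Up to 2 kb the Vmn1r share was lower, 4.84% against 6.32%, and at 2 to 5 kb, at 5.86%, it was higher than in all genes. The gap in bases was thus widest in the 11 members above 20 kb.

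The receptors form 10 genomic clusters, defined here as runs of Vmn1r genes with less than 1 Mb between neighbouring bodies, which hold 205 of the 210 genes and span 12.6 Mb. The other 5 are single genes. On chromosomes with several clusters these are lettered in order of position: 6a, 6b and 6c on chromosome 6 and 7a, 7b, 7c and 7d on chromosome 7. The spans were rich in H3K9me3 domains, with 451 domains, 35.8 per Mb against 15.7 per Mb over the genome, and 19.6% of bases in domains against 6.28%. The receptor genes themselves were the sparse part of these spans, with 4.90% of bases in Vmn1r gene bodies inside domains and 21.6% of the bases between them. Gene bodies had the lower coverage in 10 of 10 clusters.

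**Figure D2:**
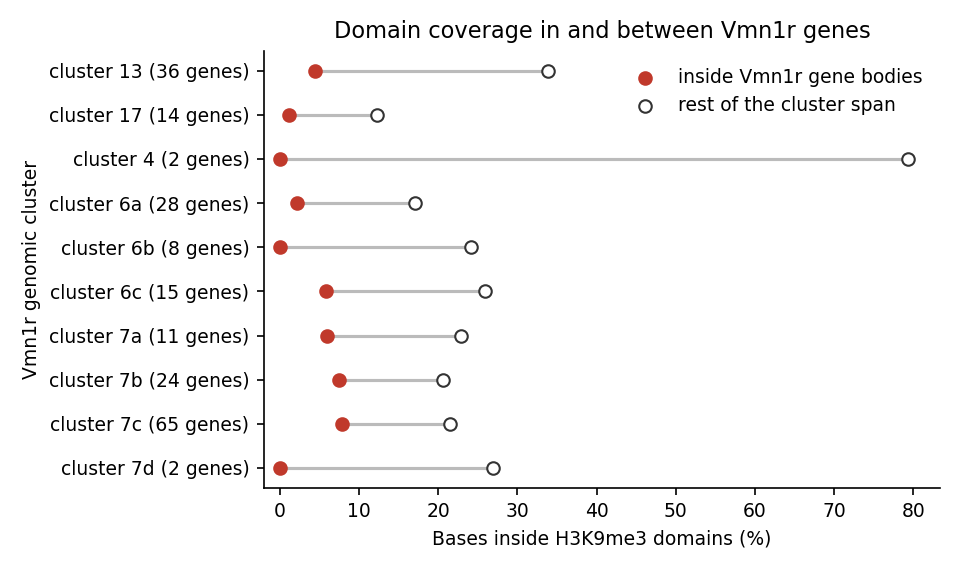
Percent of bases inside H3K9me3 domains within Vmn1r gene bodies (filled points) and in the rest of the cluster span (open points) for the 10 clusters of 2 or more genes, labelled by chromosome and letter with the number of genes. The filled point lies to the left of the open one in each cluster, at 0 in clusters 4, 6b and 7d.

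Repeated sequence was less common inside the gene bodies, where 34.6% of bases were soft-masked, than between them, where 57.4% were. The gap in coverage was present in both kinds of sequence. Among soft-masked bases, 8.23% were in domains inside gene bodies and 28.1% between them, and among unmasked bases the values were 3.13% and 12.9%.

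Cluster 13 (chr13:22084440-23253906), with 36 genes, was the most covered of the clusters with more than 2 genes: 26.8% of its span lay in 48 domains, with 4.40% of gene body bases and 33.8% of the bases between genes. Its 7 domains on 6 genes (Vmn1r191, Vmn1r208, Vmn1r213, Vmn1r215, Vmn1r218 and Vmn1r219) were all intermediate. Cluster 17 (chr17:20414146-21314912), with 14 genes, had the least covered span of the 10, with 10.7% in domains, split into 1.17% of gene body bases and 12.3% of the bases between genes. Only Vmn1r233 and Vmn1r234 had a domain there, 1 each.

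Cluster 6a (chr6:56924015-58475330) had 28 genes, of which Vmn1r5, Vmn1r9, Vmn1r16 and Vmn1r30 carried 5 domains, 3 intermediate and 2 slow. Its coverage was 2.16% in gene bodies and 17.0% between them. Cluster 6b (chr6:66552180-66810609) had 12 domains in its span and none on its 8 genes. Cluster 6c (chr6:89707540-90271213) had 15 genes, with 2 domains on 3 of them, and coverage of 5.77% in gene bodies against 25.9% between.

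Cluster 7a (chr7:5129291-6011010) had 11 genes with domains on Vmn1r56 and Vmn1r65, and coverage of 5.90% in gene bodies and 22.9% between. Cluster 7b (chr7:10272991-13220657) had the highest share of genes with a domain among the 10 clusters, 7 of 24 (29.2%), namely Vmn1r73, Vmn1r74, Vmn1r80, Vmn1r81, Vmn1r82, Vmn1r86 and Vmn1r88. They carried 7 intermediate domains and 1 slow one. Coverage there was 7.51% in gene bodies and 20.6% between genes.

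Cluster 7c (chr7:20099680-24063554) is the largest array, with 65 genes over 3964 kb, and had the lowest share of genes with a domain among the clusters that had any: 4 of 65 (6.15%). These were Vmn1r139, Vmn1r158, Vmn1r167 and Vmn1r168, with 3 intermediate domains and 1 slow one. The span held 143 domains and 20.8% of its bases were in them, with 7.90% of gene body bases and 21.4% of bases between genes. Annotated gene bodies are short here, with a median of 924 bp, and most consist of coding sequence alone, with no untranslated exon or intron. Such bodies offer fewer bases to overlap, which bears on the share of genes, the coverage of bodies and the covered starts in this cluster. How far the annotation accounts for these values was not tested. Clusters 7d and 4 have 2 genes each, with no domain on them, and in cluster 4 a 9 kb slow domain at chr4:3174601-3183600 lay between Vmn1r2 and Vmn1r3 and made up 79.4% of the bases outside their bodies. Of the 5 single genes, Vmn1r1 alone had a domain, and GL456219 held 8 domains but none on Vmn1r186.

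Coverage was lowest next to the reading frames and rose with distance on both sides. Within 1 kb of the coding sequence, 2.48% of upstream and 3.08% of downstream bases were in domains. At 3 to 5 kb the values were 9.52% and 10.4%, at 7.5 to 10 kb 21.7% and 22.7%, and at 10 to 15 kb 24.8% and 25.8%. Beyond 20 kb they lay between 13.9 and 21.8%. Windows of neighbouring genes overlap in dense arrays, so 1 domain can enter the windows of several genes.

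**Figure D3:**
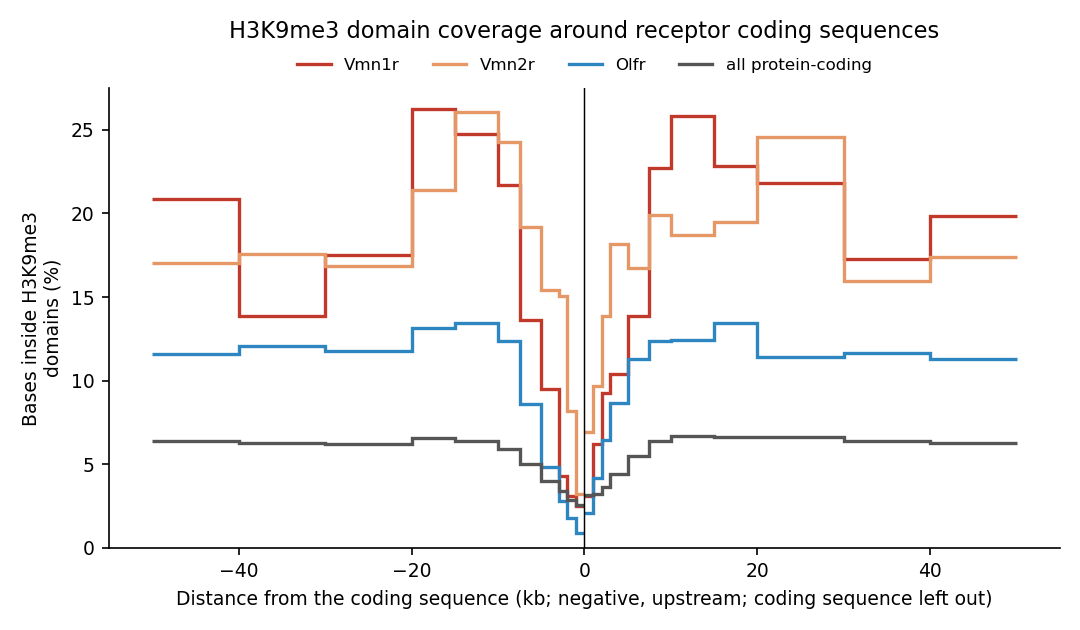
Percent of bases inside H3K9me3 domains by distance from the coding sequence, in kb, upstream (negative) and downstream, for Vmn1r, Vmn2r, Olfr and all protein-coding genes. The Vmn1r line rises from 2.48% in the upstream kb next to the coding sequence to 26.2% at 15 to 20 kb, while the line of all protein-coding genes goes from 2.54% to 6.57%.

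In the kb next to the coding sequence, Vmn1r genes were near the level of all protein-coding genes (2.54% upstream and 3.19% downstream), and at 10 to 15 kb they were well above it (6.37% and 6.72%). On the downstream side, olfactory receptor (Olfr) genes had 2.09% in the next kb and 12.4% at 10 to 15 kb, and Vmn2r genes 6.95% and 18.7%. A rise with distance was thus present in the 3 receptor families.

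For the 203 members with a domain on either side and none in or between coding pieces, the median distance from coding sequence to the nearest domain was 12.4 kb upstream and 12.0 kb downstream. The nearer domain was upstream in 93 and downstream in 110. Within 5 kb of the coding sequence, 28 had a domain upstream and 36 downstream. In cluster 7c the sides differed: 10 genes had a domain within 5 kb upstream and 4 had one within 5 kb downstream, and at 3 to 5 kb coverage was 14.4% upstream and 4.53% downstream. In the other 145 members the order was the opposite, with 18 genes upstream and 32 downstream, and 7.35% and 13.0% at 3 to 5 kb. The 10 genes of cluster 7c include Vmn1r101, Vmn1r113, Vmn1r117, Vmn1r119, Vmn1r129 and Vmn1r149, all close copies of Vmn1r158. They also include Vmn1r135 and Vmn1r163, whose coding sequences are identical, so the 10 are not independent genes. Over 64 genes of the cluster, the nearer domain was upstream in 34 and downstream in 30.

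Cluster 7c is made of close copies, which bears on what a domain there stands for. The median identity of a gene's coding sequence to its closest copy in the family was 99.6%, and 59 of the 65 genes had a copy of over 95% identity. The share of 31-base words of a gene body found at 1 place in the genome, on either strand, had a median of 3.37% in cluster 7c and 80.2% in the other members. The median over the domains in the span was 0%. No source used here gives how reads with several matches entered the domain calls, and the part of such reads in these classes was not tested.

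**Figure D4:**
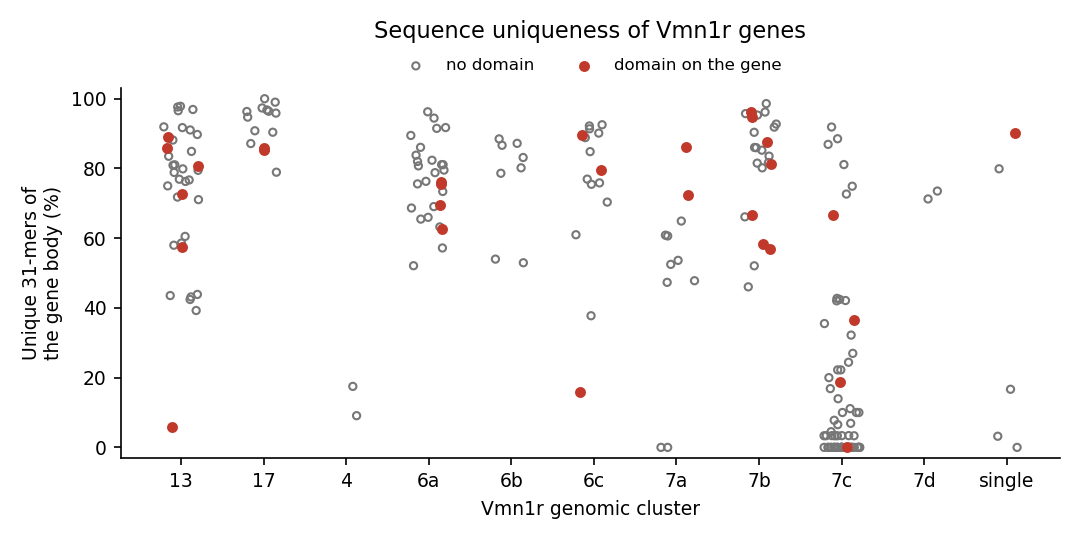
Share of 31-base words of each Vmn1r gene body that occur at 1 place in the genome, in percent, by cluster, with genes that carry a domain as filled points and the others as open circles (points are spread sideways for visibility). Most genes of cluster 7c lie near 0, and its gene with the highest value among those with a domain, Vmn1r167, is at 66.7%.

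The median share of unique words was 75.7% in the 29 genes with a domain and 69.1% in the 181 without. Among the 31 domains it ran from 0% in the intronic domain of Vmn1r139 to 95.1% in that of Vmn1r42 and Vmn1r43. The domains over the reading frames of Vmn1r48 and Vmn1r158 had 4.76% and 15.4%, those of Vmn1r65 and Vmn1r215 58.0% and 50.8%.

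The deposited domains at Vmn1r158 and at its closest copies are set side by side here. All 924 coding bases of Vmn1r158 were in a domain, and 0 of 924 in each of the 6 genes most like it. A value of 0 is usual in the family, where 2.86% of the 210 members had any coding base in a domain. Vmn1r101 differs from it at 11 coding bases (98.8% identity) and has its nearest domain 1808 bp upstream, and Vmn1r149 differs at 12 and has one 272 bp upstream. In Vmn1r119 (25 differences) the domain began 2246 bp upstream, in Vmn1r117 (37) 3080 bp and in Vmn1r129 (37) 3210 bp, each of the intermediate class. In Vmn1r113 (42 differences) the nearest domain, 4185 bp upstream, was fast. The 6 genes thus had their nearest domain on the upstream side and differed in how far it was from the reading frame, while the domain of Vmn1r158 covered the whole gene. Unique 31-base words made up 18.9% of the body of Vmn1r158 and from 0% (Vmn1r101) to 20% (Vmn1r113) of those of the 6 genes. How reads with several matches were placed among these copies is not given. Their part in the difference between Vmn1r158 and the 6 genes was not tested.

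The 150 bases before the coding start of Vmn1r158 and of 3 copies are shown because the domain covers the first window and not the others. They are the mm10 sequences chr7:22790783-22790932, chr7:20442594-20442743 and chr7:22438230-22438379 on the minus strand and chr7:20787135-20787284 on the plus strand, 5′ to 3′, and capitals mark bases that differ from Vmn1r158 in the alignment of the 2 windows.
Vmn1r158: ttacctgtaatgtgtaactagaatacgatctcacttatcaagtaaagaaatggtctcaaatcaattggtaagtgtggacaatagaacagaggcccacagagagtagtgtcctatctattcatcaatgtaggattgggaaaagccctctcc
Vmn1r101: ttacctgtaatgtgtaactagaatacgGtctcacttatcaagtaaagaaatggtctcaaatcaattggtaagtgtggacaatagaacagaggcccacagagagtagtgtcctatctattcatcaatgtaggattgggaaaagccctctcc
Vmn1r149: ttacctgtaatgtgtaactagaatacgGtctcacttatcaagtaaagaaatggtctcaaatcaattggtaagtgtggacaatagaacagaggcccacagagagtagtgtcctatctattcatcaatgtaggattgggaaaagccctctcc
Vmn1r113: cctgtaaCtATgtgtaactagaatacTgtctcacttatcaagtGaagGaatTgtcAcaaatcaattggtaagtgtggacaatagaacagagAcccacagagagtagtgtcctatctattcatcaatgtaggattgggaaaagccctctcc
The window of Vmn1r158 was inside the domain over all 150 bases, and 0 bases were in a domain in each of the other 3. The windows of Vmn1r101 and Vmn1r149 differed from it by 1 base and that of Vmn1r113 by 13. The count for Vmn1r113 includes alignment gaps, where it lacks a base of Vmn1r158, and capitals do not mark these. The placing of reads between such similar windows is unknown here too.

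Off the Vmn1r gene bodies, the cluster spans held 421 domains: 336 intermediate (79.8%, interval 75.7 to 83.5%), 69 slow (16.4%, 13.0 to 20.3%), 15 fast (3.56%, 2.01 to 5.81%) and 1 residual (0.238%, 0.00601 to 1.32%). These intervals cover counting error only and take the domains as independent. Many domains of the largest array share their sequence, as described below, so the intervals may be too narrow. With the domains on the genes, the spans held 451. Of the 451, 333 (73.8%) lay on no annotated gene, 30 lay on a Vmn1r gene, 38 on another protein-coding gene and 11 on a Vmn1r pseudogene. The median distance to the nearest Vmn1r gene body was 12.2 kb. The residual class, 4.57% of all domains, was represented by 300 bp at chr7:10284901-10285200 on the pseudogene Vmn1r-ps47.

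**Figure D5:**
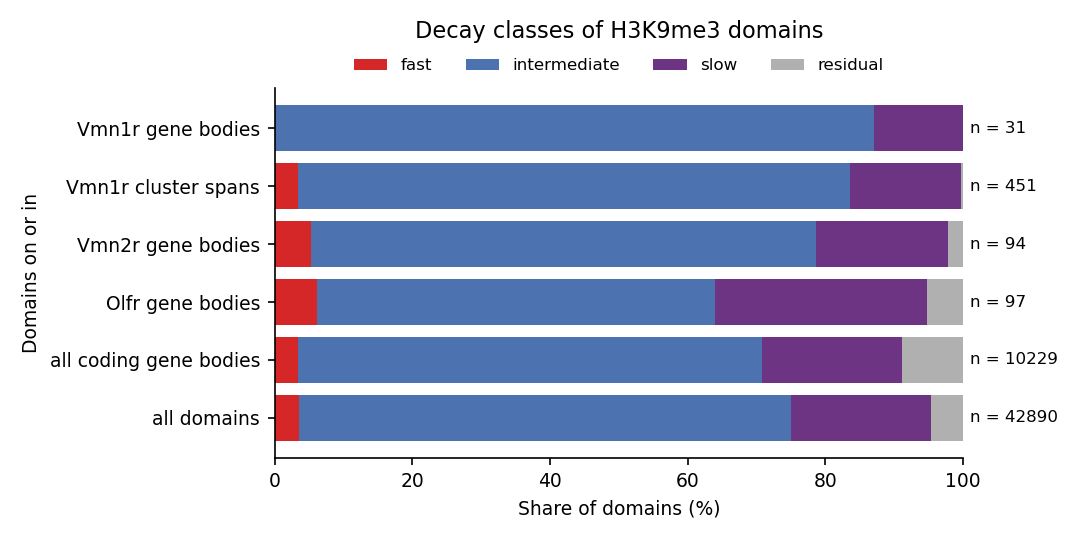
Share of H3K9me3 domains in each decay class, in percent, for domains on Vmn1r gene bodies, in the spans of Vmn1r clusters, on Vmn2r, Olfr and all protein-coding gene bodies, and for all domains on assembled chromosomes, with the number of domains at the right. The bar of Vmn1r gene bodies has 87.1% intermediate and no fast or residual part.

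None of the 15 fast domains in the spans touched a Vmn1r gene, and 1 of them, at chr17:20570101-20571600, lay on Vmn2r110. The nearest to a Vmn1r gene stood 1.06 kb from Vmn1r18 in cluster 6a, at chr6:57372601-57375600, and the next 4185 bp from Vmn1r113 in cluster 7c. Cluster 7c held 8 of the 15 (5.59% of its 143 domains), 7b held 4, and 6a, 7a and 17 held 1 each. Fast domains in the spans had a median width of 2.4 kb, intermediate ones 3.6 kb and slow ones 7.2 kb, against 2.7, 2.7 and 4.2 kb over the genome.

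Within cluster 7c many domains share their sequence. Of its 143 domains, 106 had at least 50% of their 31-base words in another domain of the cluster, and in 85 of these (80.2%) the domain that shared most had the same class. Of the 143 domains 109 were intermediate (76.2%), 26 slow and 8 fast. Among the slow ones, 20 had such a like domain, and for 15 of these the one that shared most was also slow. Of the 8 fast domains, 6 had such a like domain, and for 3 of them any of the like ones was also fast. By the measure used for the slow ones, only the fast domain at chr7:23038501-23040600 had a fast domain as the one that shared most. For the others of the 6, the one that shared most was intermediate or slow. The fast domain at chr7:21566101-21567900 shared 93.9% of its words with an intermediate domain at chr7:22048501-22050600, so nearly the same letters were assigned different classes at 2 places. In both of these domains 0% of the sampled words were found at 1 place in the genome. How reads with several matches were placed is not given, and their part in the 2 classes was not tested.

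The median width of the 31 domains on Vmn1r genes was 4.2 kb against 3 kb over all domains, GC content 41.5% against 43.0%, the observed over expected CpG ratio 0.217 against 0.230, soft-masked share 73.9% against 71.3% and unique 31-base words 45.8% against 47.6%. Domains on protein-coding gene bodies as a whole had a soft-masked share of 49.6%.

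Of 118 Vmn1r pseudogenes, 13 (11.0%) had a domain, and their 12 domains were 7 intermediate, 4 slow and 1 residual, none shared with the protein-coding members.

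Vmn2r genes, which encode the receptors of the basal vomeronasal neurons and have several coding exons, differed from Vmn1r in how often they were touched. A domain lay on 59 of 123 (48.0%), with 9.64% of gene body bases in domains, and their median length was 26903 bp. Their 94 domains were 69 intermediate (73.4%), 18 slow, 5 fast and 2 residual. In their clusters, built by the same rule, 9.64% of gene body bases and 19.6% of bases between genes were in domains, a smaller gap than for Vmn1r (4.90% and 21.6%).

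Olfr genes, the receptors of the main olfactory epithelium, are nearest to Vmn1r in gene structure, with a median length of 6002 bp. A domain lay on 85 of 1135 (7.49%), and the 97 domains were 56 intermediate (57.7%), 30 slow, 6 fast and 5 residual. Coverage was 2.50% in gene bodies and 14.1% between them in their clusters. Trace amine receptor (Taar) genes had a domain on 0 of 15 and bitter taste receptor (Tas2r) genes on 1 of 35, both with bodies near 1 kb, at medians of 1047 and 960 bp. These differences between families were not tested, since a domain has 1 class and no replicate, and gene length differs between them.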

How the data were processed

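Per the labels, H3K9me3 was immunoprecipitated with Drosophila chromatin as spike-in. The submitters' processing notes list bedtools, deepTools, SAMtools 1.1 and Bowtie2 2.3.4.1 and the builds GRCm38, mm10, mm9 and dm6. The authors deposited 1 table of domains with decay classes. The calling of domains, the placing of reads with several matches and the limits of the classes were not given in the sources used here. All 43039 domains lay on a 300 bp grid and 0 ran past a GRCm38 chromosome end. HP1β was not analysed here.

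The genes and lists were chosen with earlier results of these data known. Domains were overlapped with GENCODE vM21 genes, with stop codons counted as coding and exons of noncoding transcripts as neither untranslated nor intron. Coordinates are 1-based. Words of 31 bases were counted over the GRCm38.p6 primary assembly, from every 100 bp of a domain and every 10 bp of a gene body. Coding identity came from edit distance (edlib 1.3.9.post1). Named genes are those with a fast or residual domain (0 genes), the 10 with most bases in domains, the 10 with the largest coding share (6 had any), the gene with most bases per cluster, and those with a covered start; others were named after their values were seen. The overlap functions, in Python 3.11.15 with numpy 2.4.6 and pandas 2.3.3, were tested on simulated data.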

Additional observations from a re-analysis of the deposited data

How the results depend on the processing

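Of 48 recomputed values, 42 stayed within the interval or within 1.5 times the reported value. The other 6 concern how many genes and bases are touched. The 29 genes with a domain became 16 with an overlap of 50% of the domain required, 16 with its midpoint inside the gene, 6 over coding sequence only and 98 with 5 kb added on either side. The covered share of gene bodies, 5.04%, was 2.19% over coding sequence only and 9.20% with 5 kb added. The share of slow domains ranged from 7.69 to 18.6% over the alternatives, and fast and residual domains were at 0 except with 5 kb added (1.69% and 0.847%) and, for residual, with pseudogenes included (2.33%). No paired analysis was possible because the table has 1 class per domain and no column for any sample. Depth is unknown, so what it limits could not be measured.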

Other observations

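Of 12 signalling and identity genes of vomeronasal neurons, 4 (33.3%) had a domain, against 23.4% of all protein-coding genes: Ano1 and Ano2, calcium-activated channels, Gnao1, the G protein alpha subunit of the basal neurons, and Plcb2, a phospholipase. Of their 8 domains, 5 were residual, 2 slow and 1 intermediate, where 9.03% of domains on protein-coding genes were residual. Plcb2 had 5700 bp (27.2% of its body, 1317 coding bases) in 1 residual domain. Trpc2, Gnai2, Gng8, Itpr3, Omp, Bcl11b, Tfap2e and Meis2 had none. The 12 genes had a median length of 43081.5 bp, against 17318 bp for all protein-coding genes, and longer genes more often had a domain. Of the body bases of the 12, 1.99% were in domains, against 3.31% for all protein-coding genes. The higher share of genes thus went with lower coverage.

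Among 5 formyl peptide receptor genes, Fpr3 had 23277 bp (27.8% of its body) in 2 intermediate domains, and Fpr-rs3, Fpr-rs4, Fpr-rs6 and Fpr-rs7 had none. The 8 H2-M10, H2-M1 and H2-M9 genes, nonclassical MHC genes found with Vmn2r receptors, had 0 domains on their bodies, against 9.18% of bases in domains between them. On GL456219 the domain nearest to Vmn1r186 was fast.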
